A study of Mus musculus with 23 samples.

Results

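Expression of 10 genes for enzymes that act on foreign chemicals and on retinoids was followed in mouse lung after inhaled lipopolysaccharide (LPS) and human alpha1-antitrypsin (AAT). They are Cyp2f2, Cyp1a1, Cyp2b10, Cyp4b1, Cyp26b1, Adh7, Aox3, Aldh1a1, Ces1d and Ces1f, 10 of the 41388 genes in the deposited table of raw counts. All 10 were found and all 10 passed the filter on low counts. They were chosen by their levels over all 5 groups, in CPM, read counts divided by library size, scaled by the trimmed mean of M values (TMM). Their differences between groups are therefore given as a description of the fit over all genes, with no independent test, and nothing is supported by them.

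Each library is the lung of 1 male Balb/c mouse, and no other genotype was used. The LPS+nAAT group (n = 5) breathed LPS aerosol and received native human AAT, the LPS+oxAAT group (n = 5) LPS and oxidized AAT, and the LPS+recAAT group (n = 5) LPS and recombinant AAT. The LPS group (n = 5) breathed LPS and received saline, and the air group (n = 3) breathed clean air and received saline. Exposures lasted 10 min on each of 3 days, with LPS at 0.21 mg/ml, each injection into the peritoneum came 1 h later, with AAT at 4 mg/kg, and the last injection preceded the end of the experiment by 6 h. The labels speak of 5 mice in a group, and further air mice and a group given the AAT peptide C-36 are not analysed here. The labels give no age.

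Cytochrome P450 enzymes add oxygen to lipophilic molecules, drawing electrons from the reductase Por. Carboxylesterases split esters, and aldehyde oxidases and dehydrogenases turn aldehydes into acids. In the lung much of this activity is known from club cells, the secretory cells of the small airways, and from alveolar epithelium. A related chain handles vitamin A: alcohol dehydrogenases oxidize retinol, aldehyde dehydrogenases turn retinal into the hormone retinoic acid, Lrat stores retinol as ester, and Cyp26 enzymes remove retinoic acid.

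Promoter windows of 300 bases, from 250 before to 50 after the RefSeq start site (GRCm38.p6), were matched for 8 of the 10 genes. Ces1d and Ces1f had no match. The windows of 4 genes are shown: Cyp26b1, Adh7 and Aox3, because these genes were lower in LPS lungs than in air lungs in every library, and Cyp1a1, because it is the standard target of the aryl hydrocarbon receptor (AhR). Each is written in the direction of its gene in lower case, with capitals for matches on either strand to GCGTG (the core of the AhR site), AGGTCA (the core of nuclear receptor sites), TATAAA (a core promoter box), TTGCNNAA (C/EBP type) and the NF-kB type site.
Cyp26b1, chr6:84593761-84594060, minus strand: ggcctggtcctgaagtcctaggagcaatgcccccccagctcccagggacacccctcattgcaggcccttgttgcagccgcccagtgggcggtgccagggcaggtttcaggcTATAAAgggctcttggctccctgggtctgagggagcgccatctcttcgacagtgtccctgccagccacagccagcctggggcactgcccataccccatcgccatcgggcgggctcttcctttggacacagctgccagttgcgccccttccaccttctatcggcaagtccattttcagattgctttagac
Adh7, chr3:138217523-138217822, plus strand: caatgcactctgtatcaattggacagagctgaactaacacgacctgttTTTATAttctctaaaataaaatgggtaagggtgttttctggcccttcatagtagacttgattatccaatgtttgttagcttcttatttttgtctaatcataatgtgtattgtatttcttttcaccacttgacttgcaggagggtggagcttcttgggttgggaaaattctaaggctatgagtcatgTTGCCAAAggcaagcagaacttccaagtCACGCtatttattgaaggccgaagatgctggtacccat
Aox3, chr1:58112886-58113185, plus strand: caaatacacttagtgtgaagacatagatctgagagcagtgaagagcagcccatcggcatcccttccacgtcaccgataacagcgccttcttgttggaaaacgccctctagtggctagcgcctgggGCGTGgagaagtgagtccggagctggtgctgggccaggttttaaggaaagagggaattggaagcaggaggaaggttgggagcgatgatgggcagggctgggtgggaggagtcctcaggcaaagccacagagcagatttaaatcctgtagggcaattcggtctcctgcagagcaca
Cyp1a1, chr9:57697363-57697662, plus strand: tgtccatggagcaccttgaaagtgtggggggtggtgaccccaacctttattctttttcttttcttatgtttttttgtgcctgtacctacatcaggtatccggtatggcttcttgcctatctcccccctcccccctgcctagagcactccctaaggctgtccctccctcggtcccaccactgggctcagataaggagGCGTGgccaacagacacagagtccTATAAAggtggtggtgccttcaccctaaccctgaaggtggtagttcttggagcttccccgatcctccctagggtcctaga

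The capitals show where each motif lies. In Cyp1a1, GCGTG began 54 bases and TATAAA 30 bases before the start site. Cyp26b1 held TATAAA at 139 bases before the start, and Aox3 held GCGTG at 125 bases before it. Adh7 held TATAAA on the opposite strand at 202 bases before the start, TTGCNNAA at 16 bases before it, and GCGTG on the opposite strand from base 13 after it. No matches overlapped. Among the 8 genes, 4 held GCGTG, 1 AGGTCA, 3 TATAAA, 3 TTGCNNAA and 0 the NF-kB type site. Over 32851 mouse windows of the same length the shares were 32.4%, 16.3%, 13.6%, 10.8% and 1.47%. A match describes letters in a window only.

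The libraries held 14.8 to 47.9 M gene counts, and TMM factors lay between 0.978 and 1.03. Markers of lung were abundant: alveolar type 2 markers totalled 26490 to 35710 CPM, and 10 hepatocyte markers 7.89 to 44.7 CPM. Neutrophil markers summed to 269 to 725 CPM in LPS+nAAT, 227 to 351 CPM in LPS+oxAAT, 244 to 448 CPM in LPS+recAAT, 338 to 447 CPM in LPS and 222 to 310 CPM in air. The labels name no batch, but the libraries formed 2 sets. The mitochondrial gene mt-Nd6, which lies opposite its neighbours, had 0.338% to 1.14% of the count of mt-Nd5 in the first set of 15 libraries and 3.39% to 4.50% in the second set of 8. The second set holds LPS+oxAAT mice 5103, 5104 and 5105 and all 5 LPS+recAAT mice. Any effect of recombinant AAT against LPS or air therefore cannot be told apart from the set, except through the LPS+oxAAT libraries. In whole lung RNA, fewer cells of a type and less RNA per cell cannot be told apart, and each p-value reflects only how much these mice varied.

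Over all 23 libraries the 10 genes spanned a wide range of level per length, in CPM per kilobase of exon. Cyp2f2 stood highest at a mean of 1200, followed by Ces1d at 411, Cyp4b1 at 321, Aldh1a1 at 287 and Cyp2b10 at 186. Aox3 followed at 20.6, Cyp26b1 at 5.35, Cyp1a1 at 2.68, Ces1f at 2.28 and Adh7 at 1.70. Only Cyp2f2 and Cyp2b10 lay above the next gene in order without any overlap of their ranges. The order of the lower 4 was not fixed: Cyp26b1 exceeded Cyp1a1 in 16 of 23 libraries, Cyp1a1 exceeded Ces1f in 13, and Ces1f exceeded Adh7 in 18. Cyp26b1 also varied most, with a 30.0-fold range between its highest and lowest library, against 1.56-fold for Ces1d and 1.75-fold for Cyp4b1.

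**Figure D1:**
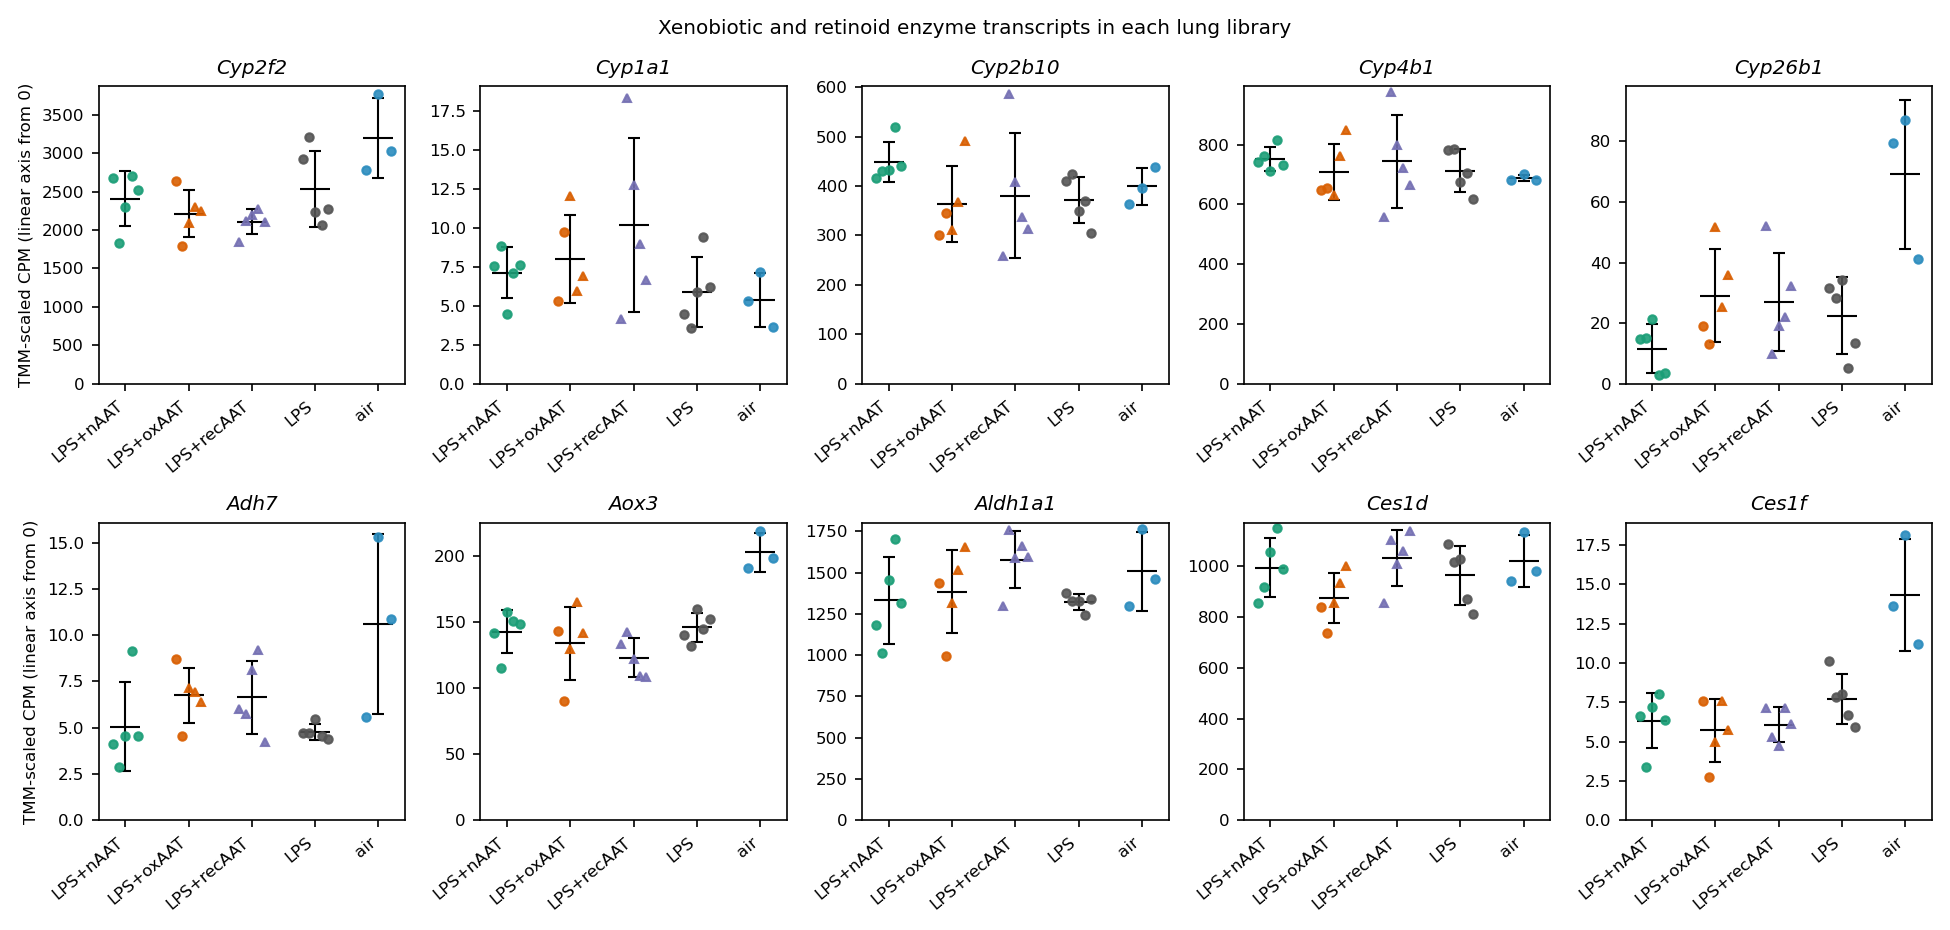
TMM-scaled CPM (linear axes from 0) of the 10 genes in each of 23 lung libraries, by group; circles are the first and triangles the second library set, and bars give the mean ± SD. Aox3 and Ces1f stood lower in every LPS-exposed library than in the 3 air libraries, while Cyp4b1 and Ces1d overlapped between LPS and air.

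Between LPS and air, the enzymes split. Adh7, Aox3 and Ces1f were lower and passed the threshold of the whole-table fit (edgeR quasi-likelihood test, adjusted p under 0.05), and Cyp26b1 had the largest log2 difference of the 10 without passing. The abundant enzymes Cyp2b10, Cyp4b1, Aldh1a1 and Ces1d overlapped between the groups. In all, 3 of the 10 genes were called, all lower, while 4.39% of the 17148 tested genes were called. In 4 of the 10, Adh7, Aox3, Cyp26b1 and Ces1f, all LPS libraries lay below all air libraries, where 11.3% of all genes had groups that did not overlap. The median log2 fold change was -0.26 over the 10 genes and -0.01 over all genes.

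Cyp2f2 is the P450 that activates naphthalene in mouse club cells. It lies on chromosome 7 (27119909 to 27133660, plus strand). It stood at 2920, 3205, 2237, 2061 and 2273 CPM in LPS lungs, against 2782, 3776 and 3030 CPM in air lungs. In LPS, 3 mice lay below all air mice and 2 lay within their range. The log2 fold change was -0.33 ± 0.15 (SE, edgeR adjusted p = 0.229). With AAT the values were 2684, 1833, 2302, 2708 and 2519 CPM after nAAT, 2636, 1795, 2095, 2304 and 2244 CPM after oxAAT, and 1843, 2120, 2194, 2279 and 2108 CPM after recAAT. All 15 of these libraries lay below the lowest air library, although by as little as 2708 against 2782 CPM. Against air, the log2 fold changes were -0.41 ± 0.15 for LPS+nAAT (adjusted p = 0.122), -0.53 ± 0.15 for LPS+oxAAT (0.0418) and -0.60 ± 0.15 for LPS+recAAT (0.011; edgeR quasi-likelihood test).

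Those values rested on the highest air mouse. Without air mouse 2102 the adjusted p of Cyp2f2 was 0.12 for LPS+recAAT and 0.273 for LPS+oxAAT against air. The LPS+oxAAT call was also lost without air mouse 2105 (0.0896) and without LPS+oxAAT mouse 5102 (0.0951), 5103 (0.0915), 5104 (0.0644) or 5105 (0.0737). With the library set as a term the adjusted p was 0.226 for LPS+oxAAT and 0.263 for LPS+recAAT, and in the first set alone it was 0.424 for LPS+oxAAT. A fit of the 2 groups alone gave 0.0868 for LPS+oxAAT, and one with no filter beyond 1 count 0.0588. Exons of Cyp2f2 share 274 bases with Gm15883 on the other strand. Gm15883 averaged 2.14 CPM in LPS+recAAT, 1.01 CPM in LPS+oxAAT, 0.0667 CPM in LPS+nAAT, 0.0586 CPM in LPS and 0.11 CPM in air. Within LPS+oxAAT it divided by library set. First-set mice 5101 and 5102 had 0 and 0.0256 CPM, and second-set mice 5103, 5104 and 5105 had 1.07, 1.91 and 2.02 CPM. Its group means therefore cannot be told apart from the set.

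Aox3, an aldehyde oxidase that also attacks drug-like ring nitrogen compounds, lies on chromosome 1 (58113130 to 58200698, plus strand). It stood at 141, 132, 160.3, 145 and 153 CPM in LPS lungs, against 191, 219 and 198.5 CPM in air lungs. The groups did not overlap, and the log2 fold change was -0.47 ± 0.13 (SE, edgeR adjusted p = 0.0422). Its values after LPS with nAAT were 142, 115.5, 158, 151 and 148.5 CPM. After oxAAT they were 143, 90.45, 129, 165 and 142 CPM, and after recAAT 133.5, 143, 122, 109.6 and 108 CPM. None of these 15 libraries reached the lowest air library. Against air, the log2 fold changes were -0.51 ± 0.13 for LPS+nAAT (adjusted p = 0.0222), -0.60 ± 0.13 for LPS+oxAAT (0.00773) and -0.72 ± 0.13 for LPS+recAAT (0.00086).

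For Aox3 the direction held without each library in turn. For LPS against air the adjusted p lay above 0.05 without LPS mouse 1101 (0.0846), 1102 (0.0933), 1104 (0.0767) or 1105 (0.0556), and without air mouse 2101 (0.0838), 2102 (0.189) or 2105 (0.0982). For LPS+nAAT it did so without mouse 4102 (0.0664), air mouse 2102 (0.132) or air mouse 2105 (0.0573), and for LPS+oxAAT without air mouse 2102 (0.0608) or in a fit of the 2 groups alone (0.0785). For LPS it was also above 0.05 in the first set alone (0.0561) and with no filter beyond 1 count (0.0602). The LPS+recAAT call was kept in 8 of 8 such fits.

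Ces1f, a carboxylesterase best known from mouse liver, lies on chromosome 8 (93256236 to 93279747, minus strand). It stood at 10.1, 7.86, 8.05, 6.66 and 5.94 CPM in LPS lungs, against 13.6, 18.2 and 11.2 CPM in air lungs. The highest LPS library lay just below the lowest air library. The log2 fold change was -0.89 ± 0.26 (SE), and its edgeR adjusted p of 0.04996 was the last of the 753 calls in that comparison. Its values after LPS with nAAT were 6.63, 3.39, 7.21, 8.03 and 6.38 CPM. After oxAAT they were 7.56, 2.76, 4.95, 7.60 and 5.71 CPM, and after recAAT 7.155, 5.265, 4.71, 7.15 and 6.13 CPM. All 15 lay below every air library. Against air, the log2 fold changes were -1.19 ± 0.26 for LPS+nAAT (adjusted p = 0.00481), -1.33 ± 0.26 for LPS+oxAAT (0.00229) and -1.24 ± 0.26 for LPS+recAAT (0.00318).

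The LPS call of Ces1f was lost without LPS mouse 1102 (adjusted p = 0.0846), 1103 (0.0661), 1104 (0.106) or 1105 (0.0906) and without air mouse 2101 (0.109), 2102 (0.279) or 2105 (0.0561). The LPS+nAAT call was lost without air mouse 2102 (0.0612), and the calls of LPS+oxAAT and LPS+recAAT were kept without each of 8 libraries. In the first set alone the call was lost for LPS (0.106) and LPS+oxAAT (0.0667), and with the library set as a term for LPS+recAAT (0.0967). For LPS it was also lost with DESeq2's size factors (0.0516) and with no filter beyond 1 count (0.0737). Reads of Ces1 genes can be split among near-identical copies, so its level is uncertain. Since Ces1f is a liver gene, hepatocyte markers were set beside it: their sum was 9.46 to 17.15 CPM in LPS+nAAT, 13.3 to 44.7 CPM in LPS+oxAAT, 7.98 to 20.99 CPM in LPS+recAAT, 7.89 to 27.8 CPM in LPS and 8.19 to 39.8 CPM in air. Alb averaged 1.14 ± 0.59 CPM in LPS and 3.69 ± 3.61 CPM in air (SD), and Ttr was the 1 of 9 tested markers called lower in LPS than in air (log2 fold change -3.54 ± 0.96, adjusted p = 0.032, given no adjusted p by DESeq2). That call was lost without LPS mouse 1101 (0.0762), 1102 (0.0675) or 1103 (0.0646), air mouse 2102 (0.11) or 2105 (0.184), and in the first set alone (0.0655). Against air, 4 of the 9 were lower in LPS+nAAT: Ttr (adjusted p = 0.00416), Apoa2 (0.0102), Alb (0.0163) and Apoa1 (0.0321). All but Ttr lost that call without air mouse 2105 (0.138 for Apoa2, 0.312 for Alb and 0.306 for Apoa1). In LPS+recAAT Apoa2 was lower (0.0299, and 0.323 without air mouse 2105), and in LPS+oxAAT none was called. The markers' median log2 fold change against air was -3.08 in LPS+nAAT, 0.02 in LPS+oxAAT, -2.13 in LPS+recAAT and -1.67 in LPS. Apoc3 and Cyp3a11 had no count in LPS+nAAT, and all 10 markers had counts in each other group; their part in the result was not tested.

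In the same cluster, Ces1d overlapped among all groups. It encodes a carboxylesterase and lipid hydrolase (chromosome 8, 93166068 to 93197838, minus strand) and averaged 995 ± 115 CPM in LPS+nAAT, 874 ± 99.2 CPM in LPS+oxAAT, 1032 ± 111 CPM in LPS+recAAT, 964 ± 115 CPM in LPS (SD, n = 5 each) and 1021 ± 103 CPM in air (n = 3). For LPS against air the log2 fold change was -0.08 ± 0.12 (edgeR adjusted p = 0.779). Adipocyte markers, set beside it because the enzyme is known from fat, summed to 395 to 491 CPM in LPS+nAAT, 381 to 531 CPM in LPS+oxAAT, 325 to 502 CPM in LPS+recAAT, 273 to 457 CPM in LPS and 209 to 234 CPM in air. The tested markers' median log2 fold change against air was -0.81 in LPS+nAAT, 0.12 in LPS+oxAAT, -0.46 in LPS+recAAT and -0.29 in LPS. Lpl was the 1 of 9 tested markers called in LPS against air, where it was higher. Its log2 fold change was 0.75 ± 0.16 (edgeR adjusted p = 0.0044, and 0.0513 without air mouse 2105), and its part in the Ces1d values was not tested.

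The retinoid enzymes differed among themselves. Adh7, a retinol and alcohol dehydrogenase (chromosome 3, 138217760 to 138233382, plus strand), stood at 4.725, 4.705, 5.46, 4.53 and 4.41 CPM in LPS lungs, against 5.59, 15.3 and 10.85 CPM in air lungs. The LPS values were tightly grouped and the air values were not, with the lowest air mouse only just above the highest LPS mouse. The log2 fold change was -1.15 ± 0.30 (SE, edgeR adjusted p = 0.0248). After LPS with nAAT it stood at 4.12, 2.90, 4.53, 9.17 and 4.535 CPM (log2 fold change against air -1.09 ± 0.30, adjusted p = 0.0286), and mouse 4104 overlapped with air. It stood at 8.72, 4.53, 7.135, 6.925 and 6.41 CPM after oxAAT (-0.66 ± 0.30, 0.295) and at 5.99, 5.72, 8.12, 9.175 and 4.23 CPM after recAAT (-0.69 ± 0.30, 0.199).

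The LPS call of Adh7 rested on air mouse 2102. Without it the log2 fold change was -0.78 and the adjusted p 0.251. The adjusted p was also above 0.05 without air mouse 2105 (0.0812) and LPS mouse 1101 (0.0515), 1102 (0.0505) or 1104 (0.0536). For LPS+nAAT against air it was above 0.05 without air mouse 2102 (0.317) or 2105 (0.0853) and LPS+nAAT mouse 4101 (0.0686), 4102 (0.0777), 4103 (0.0598) or 4105 (0.0599), and 0.157 in a fit of the 2 groups alone. In the first set alone it was 0.0628 for LPS and 0.0657 for LPS+nAAT against air. Because Adh7 is known from squamous epithelium of the upper gut, the 10 squamous and basal markers were summed. They came to 1.91 to 2.18 CPM in LPS+nAAT, 1.95 to 2.55 CPM in LPS+oxAAT and 1.89 to 2.99 CPM in LPS+recAAT. Their sum was 1.34 to 2.06 CPM in LPS and 1.51 to 1.85 CPM in air. Sprr3 and Dsg3 had no count in any group, nor had Krt6a in LPS+oxAAT or air. Exons of Adh7 share 108 bases with 0610031O16Rik on the other strand, which averaged 0.0517 CPM in LPS and 0.118 CPM in air.

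Cyp26b1, which hydroxylates retinoic acid for removal, lies on chromosome 6 (84571414 to 84593908, minus strand). It stood at 31.5, 28.2, 34.2, 5.06 and 13.3 CPM in LPS lungs, against 79.4, 87.0 and 41.2 CPM in air lungs. No LPS library reached the lowest air library, but values ran from 5.06 to 34.2 CPM within the LPS group. The log2 fold change was -1.62 ± 0.64 (SE), a fold of 0.325, and the edgeR adjusted p was 0.179. After LPS with nAAT it stood at 14.9, 15.1, 21.5, 2.90 and 3.47 CPM. These 5 libraries also lay below all air libraries, with a log2 fold change of -2.57 ± 0.66 (adjusted p = 0.0227). Without air mouse 2101 or 2102 the adjusted p was 0.0758 or 0.0899, in a fit of the 2 groups alone 0.108 and in the first set alone 0.0561.

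With the other preparations Cyp26b1 overlapped with air. It stood at 19.2, 13.1, 51.9, 25.2 and 36.0 CPM after oxAAT (log2 fold change against air -1.25 ± 0.64, adjusted p = 0.392) and at 52.15, 9.84, 19.2, 21.99 and 32.4 CPM after recAAT (-1.34 ± 0.64, 0.274). In LPS+oxAAT, both libraries of the first set lay below all 3 of the second. Against LPS+nAAT the log2 fold change was 1.32 ± 0.59 for LPS+oxAAT (adjusted p = 0.383) and 1.23 ± 0.59 for LPS+recAAT (0.339).

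Aldh1a1, the dehydrogenase that makes retinoic acid from retinal (chromosome 19, 20492715 to 20643465, plus strand), averaged 1334 ± 264 CPM in LPS+nAAT, 1383 ± 251 CPM in LPS+oxAAT, 1579 ± 173 CPM in LPS+recAAT, 1324 ± 49.6 CPM in LPS (SD, n = 5 each) and 1508 ± 237 CPM in air (n = 3). The LPS mice spanned 1244 to 1379 CPM and the air mice 1297 to 1765 CPM. The log2 fold change was -0.19 ± 0.15 (edgeR adjusted p = 0.555), and some of its reads can be shared with the close copy Aldh1a7.

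The 3 remaining P450 genes were not called in LPS against air, and their LPS libraries overlapped with air. Cyp2b10, the mouse target of the receptor CAR (chromosome 7, 25897620 to 25926624, plus strand), averaged 372 ± 47.3 CPM in LPS and 399 ± 37.9 CPM in air. Cyp4b1, a lung P450 of fatty acids and plant toxins (chromosome 4, 115624725 to 115647723, minus strand), averaged 713 ± 72.0 CPM in LPS and 689 ± 10.3 CPM in air. Both groups overlapped for each, with log2 fold changes of -0.10 ± 0.18 for Cyp2b10 and 0.05 ± 0.13 for Cyp4b1 (edgeR adjusted p = 0.828 and 0.89). The 95% interval of the fold was 0.712 to 1.22 for Cyp2b10 and 0.855 to 1.25 for Cyp4b1. Reads of the Cyp2b cluster can be split among its copies.

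Cyp1a1, the P450 that AhR ligands induce (chromosome 9, 57687928 to 57703824, plus strand), stood at 4.46, 3.55, 5.87, 9.38 and 6.185 CPM in LPS lungs, against 5.30, 7.135 and 3.67 CPM in air lungs. The groups overlapped fully (log2 fold change 0.14 ± 0.38, edgeR adjusted p = 0.897), and the sign turned without LPS mouse 1104 (-0.09) or air mouse 2105 (-0.07). The 95% interval of the fold was wide, from 0.631 to 1.91. After recAAT it stood at 4.15, 18.35, 12.7, 8.97 and 6.64 CPM. Of these 5 mice, 3 lay above all air mice, and the lowest recAAT mouse lay within the air range. Cyp1a1 stood at 7.57, 8.86, 4.485, 7.13 and 7.61 CPM after nAAT and at 5.32, 9.75, 12.01, 5.93 and 6.93 CPM after oxAAT. Both of these groups also held mice above all air mice. Their log2 fold changes against air were 0.41 ± 0.38 and 0.57 ± 0.38 (edgeR adjusted p = 0.672 and 0.552). The log2 fold change of LPS+recAAT was 0.91 ± 0.39 against air (adjusted p = 0.191) and 0.78 ± 0.33 against LPS (0.145).

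**Figure D2:**
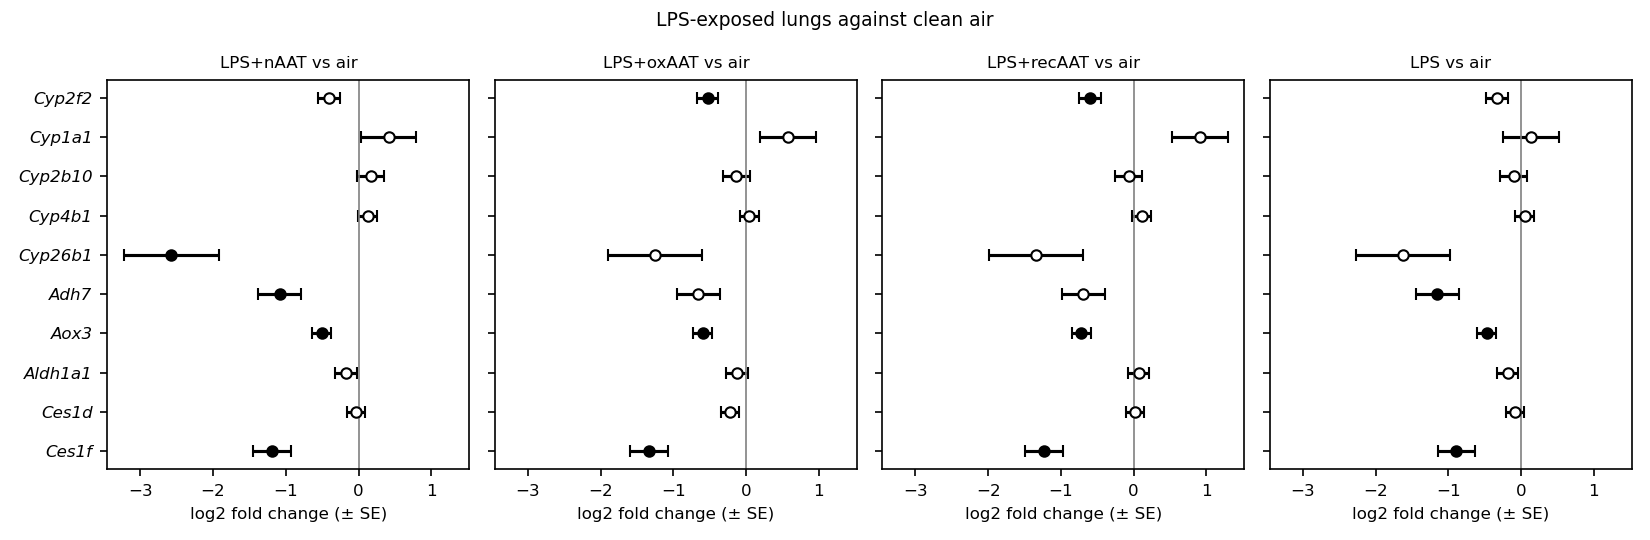
log2 fold change ± SE of each gene (rows) for the 4 LPS-exposed groups against air, from the fit over all genes; filled points had an adjusted p under 0.05, and the vertical line is 0. Aox3 and Ces1f are filled in all 4 panels, and Cyp26b1 is filled for LPS+nAAT alone, at -2.57.

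Across the groups given AAT after LPS, the comparison with air called 4 of the 10 genes lower for LPS+nAAT (Cyp26b1, Adh7, Aox3 and Ces1f), with 5.62% of all tested genes called. For LPS+oxAAT it called 3 lower (Cyp2f2, Aox3 and Ces1f), with 3.76% of all genes called, and for LPS+recAAT the same number (Cyp2f2, Aox3 and Ces1f), with 6.83% called. None was called higher. These comparisons and that of LPS share the 3 air mice, so their likeness is not independent. Groups that did not overlap were 5 of 10 for LPS+nAAT (Cyp4b1 higher and 4 lower), and 3 of 10 each, all lower, for LPS+oxAAT and LPS+recAAT, where 13.2%, 9.88% and 16.1% of all genes had such groups. Median log2 fold changes over the 10 genes were -0.29, -0.38 and -0.34, and all-gene medians lay between -0.02 and 0.00. With the library set as a term, 1 of the 10 genes, Aox3, was called for LPS+recAAT against air.

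The comparison of each AAT group with LPS asks whether AAT moved these enzymes in LPS-exposed lungs. No member was called for any preparation by the edgeR quasi-likelihood test, and by the DESeq2 Wald test the count was also 0 for each. Over all tested genes 0.595% were called for LPS+nAAT, 4.71% for LPS+oxAAT and 8.49% for LPS+recAAT. At an unadjusted p under 0.05 there were 0 of the 10 for LPS+nAAT, 0 for LPS+oxAAT and 3 for LPS+recAAT, namely Cyp1a1, Aox3 and Cyp2f2. Such values were common in LPS+recAAT against LPS: 4041 of the 17148 tested genes had a p at or below the 0.0494 of Cyp2f2 (edgeR). Counts at an unadjusted p under 0.05 given below, for preparations and lists, have no such share beside them. Every gene overlapped between its AAT group and LPS in all 3 comparisons, where 3.04%, 2.50% and 7.46% of all genes did not.

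Cyp26b1 had the widest interval with nAAT: the log2 fold change was -0.95 ± 0.59 (SE, adjusted p = 0.474), and the fold had a 95% interval from 0.219 to 1.22. For the abundant enzymes the intervals were narrow. With nAAT they ran from 0.786 to 1.15 for Cyp2f2, 0.896 to 1.25 for Cyp4b1, 0.834 to 1.22 for Aldh1a1 and 0.887 to 1.20 for Ces1d. With oxAAT the interval ran from 0.722 to 1.05 for Cyp2f2. It was wider for the scarce enzymes, from 0.522 to 1.04 for Ces1f and 0.954 to 2.08 for Adh7. For Cyp26b1 it ran from 0.559 to 2.99 with oxAAT and from 0.525 to 2.81 with recAAT. For Cyp1a1 it ran from 0.843 to 2.17 with oxAAT and from 1.07 to 2.75 with recAAT, above 1 without adjustment for the number of genes. The intervals of the abundant enzymes leave room for modest differences, and those of the scarce enzymes for larger ones.

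With recAAT, Cyp2f2 averaged 2109 ± 164 CPM, against 2539 ± 495 CPM in LPS (SD, n = 5 each; log2 fold change -0.27 ± 0.13, adjusted p = 0.209). Aox3 averaged 123 ± 14.9 CPM with recAAT, against 146 ± 10.9 CPM in LPS (-0.24 ± 0.12, 0.208). Aldh1a1 averaged 1579 ± 173 CPM with recAAT, against 1324 ± 49.6 CPM in LPS (0.25 ± 0.13, 0.237), and this difference was -0.05 with the library set as a term. Relative to its mean, Cyp2b10 had the widest spread among the abundant P450 genes after recAAT (SD 33.3% of the mean). Its values ran from 259 to 586 CPM, against 306 to 423 CPM in LPS. Mouse 6102 of the LPS+recAAT group had the highest Cyp1a1, Cyp2b10, Cyp4b1 and Aldh1a1 values of its group and its lowest Cyp26b1 value.

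**Figure D3:**
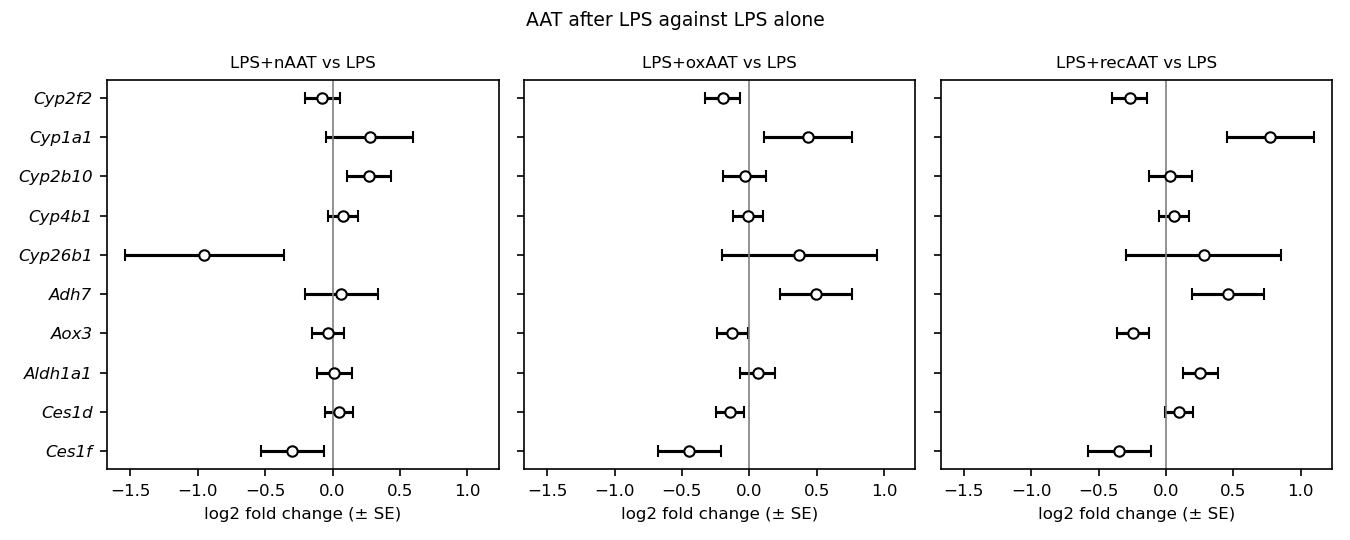
log2 fold change ± SE of each gene (rows) for the 3 groups given AAT after LPS against LPS, from the fit over all genes; open points had an adjusted p of 0.05 or more, and the vertical line is 0. All points are open, and they run from -0.95 for Cyp26b1 with nAAT to 0.78 for Cyp1a1 with recAAT.

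Between AAT preparations no member was called either, by edgeR or by the DESeq2 Wald test. Over all genes 0.344% were called between LPS+oxAAT and LPS+nAAT, 1.93% between LPS+recAAT and LPS+nAAT and 0.0175% between LPS+recAAT and LPS+oxAAT. At an unadjusted p under 0.05 there was 1 member in the first of these (Cyp26b1), 0 in the second and 1 in the third (Ces1d, log2 fold change 0.24 ± 0.10, adjusted p = 1).

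Since Cyp2f2 is a club cell enzyme, both it and Aox3 were set against the club cell markers of the same library. The 11 markers summed to 27640 to 44270 CPM in LPS+nAAT, 30670 to 37870 CPM in LPS+oxAAT, 29060 to 43550 CPM in LPS+recAAT, 26940 to 52710 CPM in LPS and 32220 to 43930 CPM in air. These sums overlapped in all groups, and Scgb1a1, the most abundant of them, averaged 33060 ± 9293 CPM in LPS and 31540 ± 5650 CPM in air. Of the 11, only Pon1, a paraoxonase, was called lower in LPS than in air (60.2 ± 11.45 CPM in LPS, against 96.8 ± 22.9 CPM in air, log2 fold change -0.69 ± 0.19, adjusted p = 0.0368), and it lost that call without LPS mouse 1101 (0.0633), 1104 (0.095) or 1105 (0.06) and air mouse 2102 (0.198) or 2105 (0.149), and in a fit of the 2 groups alone (0.0675).

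Per 100 CPM of club cell markers, Cyp2f2 stood at 5.56 to 6.78 CPM in LPS+nAAT, 5.85 to 6.96 CPM in LPS+oxAAT, 4.84 to 7.29 CPM in LPS+recAAT, 5.98 to 7.65 CPM in LPS and 7.54 to 8.64 CPM in air. Only 1 LPS library overlapped with air on this scale. Scgb1a1 made up most of each marker sum. LPS mice 1101 and 1102, whose Cyp2f2 lay within the air range in CPM, had the highest Scgb1a1 of all libraries (41050 and 43750 CPM). On the same scale Aox3 stood at 0.25 to 0.539 CPM in LPS and 0.494 to 0.593 CPM in air, and the groups overlapped. It stood at 0.34 to 0.418 CPM in LPS+nAAT, 0.295 to 0.461 CPM in LPS+oxAAT and 0.249 to 0.491 CPM in LPS+recAAT, below the lowest air library in each. No test was made of these ratios.

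**Figure D4:**
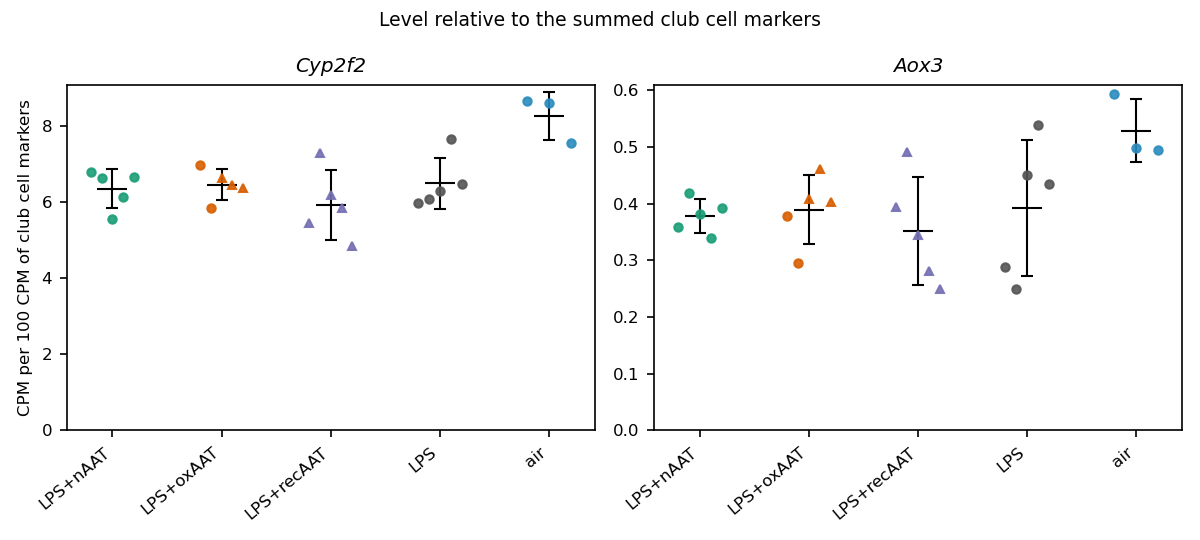
Cyp2f2 and Aox3 per 100 CPM of summed club cell markers (linear axes from 0) in each library; circles are the first and triangles the second library set, and bars give the mean ± SD. The air libraries lie at 7.54 to 8.64 for Cyp2f2 and 0.494 to 0.593 for Aox3, above all libraries given AAT.

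The AhR pathway was read from a list of 10 genes, of which 9 were tested. Only Ahr, the receptor itself, was called in LPS against air. It averaged 70.8 ± 17.2 CPM in LPS, against 105 ± 10.1 CPM in air (SD; log2 fold change -0.56 ± 0.16, edgeR adjusted p = 0.0493). That call was lost without LPS mouse 1101 (0.0943), 1102 (0.0875) or 1104 (0.0682) and air mouse 2101 (0.163), 2102 (0.179) or 2105 (0.0688), and in a fit of the 2 groups alone (0.143). The list's median log2 fold change was -0.09, against -0.01 over all genes. Tiparp, which AhR induces, had 45.85 ± 9.40 CPM in LPS and 57.2 ± 5.42 CPM in air (adjusted p = 0.221), and Cyp1b1, a related P450, had 9.775 ± 1.68 CPM in LPS and 9.44 ± 1.67 CPM in air.

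With AAT, Ahr was again the only gene of the list called. It averaged 126 ± 20.8 CPM in LPS+oxAAT, against 70.8 ± 17.2 CPM in LPS (log2 fold change 0.83 ± 0.15, adjusted p = 0.00311), and 112 ± 18.7 CPM in LPS+recAAT (0.66 ± 0.14, 0.00587). The values were 125, 100, 153, 138 and 112 CPM in LPS+oxAAT, 142, 111, 96.0, 96.0 and 113 CPM in LPS+recAAT, and 66.8, 42.9, 86.2, 75.9 and 82.2 CPM in LPS. Neither AAT group overlapped with LPS, and both calls were kept without each of 10 libraries. The LPS+oxAAT mice 5101 and 5102, of the same library set as LPS, were among those above it. In the first set alone, however, the edgeR adjusted p of LPS+oxAAT against LPS was 0.429 (log2 fold change 0.67). With the set as a term, the adjusted p was 0.302 for LPS+oxAAT (log2 fold change 0.67) and 0.76 for LPS+recAAT (0.40). A fit of LPS+oxAAT and LPS alone gave 0.0605. In LPS+nAAT, Ahr averaged 78.6 ± 6.26 CPM, and none of the 9 genes was called against LPS, with 0 also at an unadjusted p under 0.05 and by DESeq2.

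Among 38 other oxidation enzymes, 30 were tested, and 2 rose and 4 fell in LPS against air (median log2 fold change -0.17, against -0.01 over all genes). Por, the electron donor of the P450 enzymes, fell to 366.5 ± 30.9 CPM in LPS, against 503 ± 49.5 CPM in air (log2 fold change -0.46 ± 0.09, edgeR adjusted p = 0.00379, 0.0568 without air mouse 2102 and 0.0628 in a fit of the 2 groups alone). It was also lower than in air with nAAT (354 ± 28.5 CPM, -0.51 ± 0.09, adjusted p = 8e-04), oxAAT (346 ± 26.7 CPM, -0.54 ± 0.09, 0.000553) and recAAT (320.1 ± 24.5 CPM, -0.65 ± 0.09, 3.5e-05). Those 3 calls were kept without each library in turn and with the library set as a term. In the first set alone the LPS+oxAAT call was lost (edgeR adjusted p = 0.0723). No Por value in an LPS-exposed library reached the lowest air value of 458 CPM.

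Akr1b8, an aldo-keto reductase, went the other way. It averaged 44.9 ± 5.81 CPM in LPS, against 23.7 ± 2.90 CPM in air (log2 fold change 0.92 ± 0.14, adjusted p = 0.000141), and was kept in 8 of 8 fits that left out a library. With AAT it averaged 42.7 ± 6.501 CPM after nAAT, 40.2 ± 3.83 CPM after oxAAT and 39.1 ± 6.32 CPM after recAAT, each called higher than air (adjusted p = 0.000235, 0.00115 and 0.00136). For recAAT the adjusted p was 0.0918 with the library set as a term. Fmo5, a flavin monooxygenase, fell to 36.8 ± 1.82 CPM in LPS, against 48.2 ± 5.02 CPM in air (-0.39 ± 0.09, 0.00781; 0.0761 without air mouse 2102, 0.0582 without 2105 and 0.088 in a fit of the 2 groups alone). Maob, a monoamine oxidase, fell to 46.9 ± 4.32 CPM in LPS, against 64.5 ± 6.48 CPM in air (-0.46 ± 0.10, 0.00531; 0.062 without air mouse 2105). Cyp4f18 (higher, adjusted p = 0.0428) and Cyp3a13 (lower, 0.0439) completed the calls of LPS against air. Each lost its call without at least 6 of the 8 libraries, at up to 0.209 and 0.129 without air mouse 2102. Fmo5 was also called lower than air after nAAT (edgeR adjusted p = 0.00113), oxAAT (0.0143) and recAAT (0.00037), and Maob after oxAAT (0.022) and recAAT (0.0014). The nAAT and recAAT calls of these genes were kept without each library in turn. With the library set as a term, Fmo5 had 0.0834 after oxAAT and 0.0507 after recAAT, and Maob 0.0323 and 0.0224.

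Against LPS, few of these oxidation enzymes were called. With nAAT and with oxAAT 0 of 30 were called by edgeR and 0 by DESeq2, with 2 and 0 at an unadjusted p under 0.05. With recAAT, Fmo2, the flavin monooxygenase of the lung, was higher at 1467 ± 272 CPM, against 954 ± 201 CPM in LPS (log2 fold change 0.62 ± 0.17, adjusted p = 0.0226). Cyp2j9 was lower at 5.97 ± 0.53 CPM, against 8.06 ± 1.16 CPM (-0.43 ± 0.13, 0.0322). Both lost their call without 5 of the 10 libraries, at up to 0.0751 for Fmo2 without LPS mouse 1102 and up to 0.103 for Cyp2j9 without LPS mouse 1101, and with the library set as a term (0.978 and 0.813).

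Other carboxylesterases were mostly low in lung: of 16 listed, 8 were tested, and their median log2 fold change in LPS against air was -0.44. Ces1b was called lower (0.377 ± 0.186 CPM in LPS and 1.125 ± 0.538 CPM in air, adjusted p = 0.0441, lost without 5 of 8 libraries at up to 0.193 without air mouse 2102). Ces2g, the most abundant, was not called. With AAT, the calls against air were all lower. They were Ces1g in LPS+nAAT (edgeR adjusted p = 0.0168), Ces1h (0.00482) and Ces1e (0.00989) in LPS+oxAAT, and Ces2b in LPS+recAAT (0.0471). Only Ces1h kept its call without each library in turn, and its adjusted p was 0.097 with the library set as a term. The list's median log2 fold changes against air were -0.39 in LPS+nAAT, -0.55 in LPS+oxAAT and -0.35 in LPS+recAAT. Against LPS no carboxylesterase of the list was called for any AAT preparation by edgeR or by DESeq2, with none at an unadjusted p under 0.05.

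Of 30 conjugation enzymes, which attach glutathione, sulfate or sugar acids, 25 were tested and 0 were called in LPS against air by edgeR or by DESeq2, with 5 at an unadjusted p under 0.05. Gstm1, the most abundant, averaged 529 ± 80.2 CPM in LPS and 568 ± 18.95 CPM in air. The list's median log2 fold change was 0.00. With recAAT, Gsta3, a glutathione transferase, was higher than in LPS at 218 ± 22.6 CPM, against 157 ± 20.9 CPM (0.47 ± 0.12, adjusted p = 0.0117, at most 0.0467 without any 1 library, and 0.833 with the library set as a term). Nat2, an acetyltransferase, was also higher (0.60 ± 0.16, 0.0171) and Gstm2 lower (-0.32 ± 0.10, 0.0446), and both lost their call with the set as a term (0.821 and 0.825). Without 1 library, the adjusted p of Nat2 reached 0.0568 and that of Gstm2 0.143.

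Of 8 regulators of xenobiotic response, nuclear receptors and the Nrf2 pair, 7 were tested. None was called in LPS against air by edgeR or by DESeq2, with 0 at an unadjusted p under 0.05. Nr3c1 and Nfe2l2 were the most abundant of them.

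The wider retinoid list held 35 genes, 34 of them in the table and 29 tested. In LPS against air 1 was called, Fabp5, a carrier of fatty acids and retinoic acid, which averaged 102.5 ± 8.42 CPM in LPS, against 74.1 ± 12.7 CPM in air (log2 fold change 0.47 ± 0.12, edgeR adjusted p = 0.0194). It lost the call without LPS mouse 1101 (0.0527) or air mouse 2101 (0.0619) or 2102 (0.172), and in a fit of the 2 groups alone (0.0768). Rbp4, the retinol carrier of plasma, averaged 18.3 ± 1.93 CPM in LPS+nAAT, against 26.75 ± 2.89 CPM in air (-0.55 ± 0.13, 0.0115; 0.0881 without air mouse 2105). The list's median log2 fold change was -0.03 in LPS against air and -0.14 in LPS+nAAT against air. Against LPS, 0 of 29 were called with nAAT by edgeR, with 6 at an unadjusted p under 0.05 and 2 by DESeq2. With recAAT 0 were called, with 5 at an unadjusted p under 0.05 and 1 by DESeq2. With oxAAT 1 was called, the retinoid X receptor gene Rxrb, at 59.2 ± 4.66 CPM, against 74.3 ± 9.36 CPM in LPS (-0.33, adjusted p = 0.0312). It lost the call without 6 of the 10 libraries (up to 0.12, without LPS+oxAAT mouse 5103), in a fit of the 2 groups alone (0.165) and with the library set as a term (0.79).

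Lrat, which stores retinol as ester, had the pattern most like that of Cyp26b1. Over the 23 libraries the root mean square difference of their centred log2 CPM was 0.81, where the spread of Cyp26b1 alone was 1.25 on the same scale. Lrat averaged 65.0 ± 31.2 CPM in LPS+nAAT, 142 ± 52.7 CPM in LPS+oxAAT, 98.0 ± 40.9 CPM in LPS+recAAT, 77.2 ± 25.8 CPM in LPS and 132 ± 16.3 CPM in air. It was called in none of the 10 comparisons (LPS against air, log2 fold change -0.77 ± 0.39, adjusted p = 0.299). The next most alike was Asgr1, at a difference of 0.97.

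**Figure D5:**
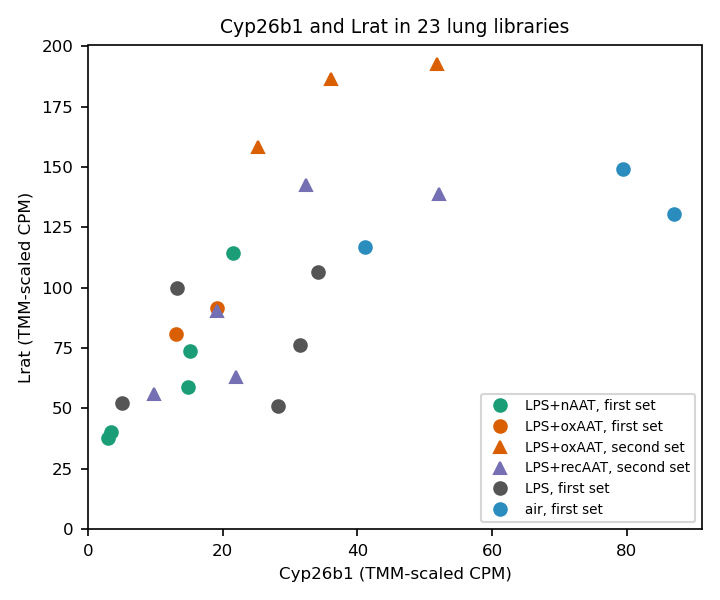
Lrat against Cyp26b1, both in TMM-scaled CPM (linear axes from 0), with 1 point for each of 23 libraries; colours are groups, and circles and triangles are the first and second library sets. LPS+nAAT libraries reach down to 2.90 CPM of Cyp26b1, while the 3 air libraries lie at 41.2 to 87.0 CPM.

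The other members had their own closest genes among 12994 candidates, by the same measure. For Cyp2f2 they were Cfap161 (0.15) and Cfap70 (0.16), named for cilia proteins, and Spag16 (0.325) was among the closest to Adh7. For Aox3 they were Arhgef28 (0.145) and Slc4a5 (0.148), and Cbs (0.333) was among the closest to Ces1f. Cyp4b1 lay closest to Scnn1a (0.106) and Klhl21 (0.112), Cyp2b10 to Pxdc1 (0.155) and P3h2 (0.163), Aldh1a1 to Cyp39a1 (0.124) and Umad1 (0.133), and Ces1d to Snw1 (0.127) and Tsc22d1 (0.136). Cyp1a1 lay closest to Bcl11b (0.385) and Il7r (0.417), genes known from lymphocytes. Among the 10 themselves the closest pairs were Cyp2b10 with Cyp4b1 (0.143), Aldh1a1 with Ces1d (0.15) and Cyp4b1 with Ces1d (0.162), and Cyp2f2 lay closest to Aox3 (0.219). These distances share the libraries and their scaling, and genes of little variation lie close to many others.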

How the data were processed

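Lung RNA of 23 mice was sequenced from stranded poly(A) libraries, per the labels. The values are whole-number counts for each Ensembl gene as deposited, not normalized by the authors. The submitters' processing notes name FastQC 0.11.8, Trimmomatic 0.38 and 0.36, STAR 2.4.0.1, HTSeq 0.11.1 and GRCm38 (mm10). Sources used here do not say with which strand setting or annotation release HTSeq was run. Library sizes and tests leave out the 5 HTSeq summary lines, of which reads on no feature made up 6.79% to 13.1%, ambiguous reads 1.12% to 1.39% and reads without a unique alignment 4.09% to 6.08%. GENCODE release 21 named 40254 of 41388 IDs and left 1134 without a symbol.

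All 23 libraries entered 1 edgeR 4.0.16 fit (R 4.3.3): filterByExpr by group (17148 genes), TMM scaling, robust quasi-likelihood F tests and Benjamini-Hochberg adjustment over all tested genes, with calls at an adjusted p under 0.05. The SE is the log2 fold change divided by the root of F, and 95% intervals use 18 residual degrees of freedom. In all, 10 comparisons were read. CPM per kilobase uses GENCODE exon length. The fit was tested on simulated data. No 2 replicates were alike within sampling noise. Alternatives were DESeq2 1.42.0, its size factors, other filters, other sets of libraries, a replicate block and leaving out each library.

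The members and lists were chosen with earlier results of these data known. All members are named. Of each list, up to 4 called genes with the smallest adjusted p in a comparison are named, or else the most abundant, and further calls named beside them were chosen after their values were seen. For each member the 2 genes with the smallest root mean square difference of centred log2 CPM (prior count 2, average log2 CPM of at least 1) are named, except a few that are not reported here.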

Additional observations from a re-analysis of the deposited data

Results flagged for a closer look

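Of 40 member and group pairs with 5 libraries 2 held a library far from the others, and in both it was LPS+nAAT mouse 4104. Its Cyp2b10 level was 519.7 CPM, against 416 to 441 CPM in the other LPS+nAAT mice. Its Adh7 level was 9.171 CPM, against 2.90 to 4.535 CPM in the others. Chance alone flags about 1 in 20 such groups, which is the share seen here. The same mouse had the lowest Cyp26b1 level of all 23 libraries, at 2.90 CPM, which was not far enough from its group to be marked.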

How the results depend on the processing

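Counts of members called in the comparisons with air moved with the fit. For LPS against air, 3 became 1 with no filter beyond 1 count and 0 in the first library set alone. For LPS+nAAT against air, 4 became 2 in a fit of only the 2 groups and 2 in the first set alone, and for LPS+oxAAT against air, 3 became 1 in each of those 2 settings. For LPS+recAAT against air, 3 became 1 with the library set as a term. Without 1 library at a time, the counts ran from 0 to 2 for LPS, 0 to 4 for LPS+nAAT, 1 to 3 for LPS+oxAAT and 2 to 3 for LPS+recAAT against air; the cause was not tested, though fewer libraries leave a wider error. In the other 6 comparisons the count stayed at 0 under every alternative run. Directions reversed for 3 uncalled values: Aldh1a1 in LPS+recAAT against LPS was -0.047 with the set as a term, and, in LPS against air, Ces1d was 0.002 without air mouse 2102 and Cyp1a1 was -0.093 without LPS mouse 1104 and -0.074 without air mouse 2105, over ranges of -0.134 to 0.002 and -0.093 to 0.398. The replicate block, the last digit of the mouse number, changed 1 call of a member: against air it gave 3 members for LPS, 4 for LPS+nAAT, 2 for LPS+oxAAT and 3 for LPS+recAAT, Cyp2f2 being lost for LPS+oxAAT (adjusted p = 0.0904). Same-numbered mice of different groups had a mean correlation of 0.0474 over 42 pairs (from -0.383 to 0.354). Mice of different groups with other last digits had -0.0121 over 168 pairs (from -0.458 to 0.408). The ranges overlap, so these correlations do not settle whether the numbers pair the mice. Reading these settings for called genes of the lists was decided after seeing the data: of 62 such calls, hepatocyte, club cell and adipocyte markers included, 30 were lost with the library set as a term. Under the DESeq2 Wald test 1 was lost, Apoa2 in LPS+recAAT against air (adjusted p = 0.0525), and Ttr in LPS against air had no adjusted p. Over all genes, the calls of LPS against air numbered 753, against 354 in a fit of the 2 groups alone and 1364 with the block. Those of LPS+nAAT against LPS numbered 102, against 16 to 429 over the other settings, those of LPS+oxAAT against LPS 808, against 6 to 1255, and those of LPS+recAAT against LPS 1456, against 0 with the set as a term. Against air, LPS+oxAAT had 645 and LPS+recAAT 1171, against 336 and 278 once the set entered as a term. Between preparations, 59 (oxAAT against nAAT), 331 (recAAT against nAAT) and 3 (recAAT against oxAAT) became 1, 0 and 2 once the set was added and 241, 602 and 8 by DESeq2. The lowest count in a library was 61 for Cyp26b1, 71 for Cyp1a1, 94 for Adh7 and 101 for Ces1f, against 1624 or more for each other member.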
